A study of Brassica rapa subsp. pekinensis with 2 samples.

Results

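Single-exon intergenic transcripts are assembled RNAs that have 1 exon and that lie between the annotated genes of Chinese cabbage (Brassica rapa subsp. pekinensis). They were taken from the table of linear isoforms as all transcripts of class code u, the assembler's label for a transcript that falls outside every reference gene, with 1 exon and a length of at least 200 nt. Transcripts inside the 500 kb window of chromosome A06 that begins at 15 Mb (B. rapa v3.0) were left out. Outside that window lay only 83613650 of the 190816341 estimated counts of Mix, against 211891156 of 216371346 in Ant. This gave 1411 members of the 50834 transcripts in the table. They were 43.3% of the 3276 class u transcripts when the 9 single-exon ones of the A06 window were counted with them. The length limit removed none, as the shortest assembled transcript of this kind was 200 nt long. The members came from 1411 distinct assembled loci, though such a locus can also hold other isoforms.

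An intergenic RNA with no intron can have several origins in plants. RNA polymerase II makes long non-coding RNAs, many of them unspliced, and short-lived transcripts from promoters and from the regions beyond gene ends. Repeats, small nucleolar RNA genes, genes that an annotation has missed and fragments of longer transcripts can also be assembled as 1 exon. Anthers hold the developing pollen and the tapetum, the nurse layer that feeds it, and both have many RNAs that vegetative organs lack.

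The study compared 1 library of anthers (Ant) with 1 library of root, stem and leaf (Mix), both from the doubled haploid (DH) line ‘FT’, to find RNAs related to anther development. Ant pooled anthers of several developmental stages, and Mix pooled the organs of whole seedlings at the stage of 4 true leaves. The labels give vernalization at 4 °C for 20 days for both libraries, whereas the study's methods describe it for the flowering plants only. Organ, plant age and possibly vernalization therefore cannot be told apart. There were no replicates, and nothing states how many plants each pool held, so each difference is between 2 libraries, has no replicate check and carries no p-value. In such bulk samples, fewer cells of a type and less RNA per cell cannot be told apart.

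The table held 216371346 estimated counts for Ant and 190816341 for Mix, of which the members took 3502213 (1.62%) and 3167696 (1.66%). Outside the A06 window the shares were 1.65% and 3.79%. The tissue labels were checked on marker genes. The 6 genes that the study examined as anther genes, chosen on these libraries, had a median FPKM of 1023 in Ant (up to 6151), and in Mix 5 of them were listed at 0, with 0.0886 for the other. The 24 transcripts of chlorophyll a-b binding proteins, the light-harvesting antenna of photosynthesis, had a median FPKM of 0.640 in Ant (0 to 3.92) and of 148 in Mix (0.0568 to 2970). Where FPKM was at least 1 in Ant and in Mix (17562 transcripts), the log2 ratio had a median of 0.54, and of -0.17 when the A06 window was taken out of the library totals. Every ratio below is read against this shift.

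The study designed primer pairs for quantitative RT-PCR against 3 of the members, and these are shown because they mark stretches of the transcripts that can be amplified from cDNA. They are copied from the study's primer list and written 5′ to 3′, in lower case throughout. All 3 target transcripts had higher FPKM in Mix than in Ant, as described further on.
MSTRG.6184.1, first primer: atctcgtgcttcattatctggtc
MSTRG.6184.1, second primer: attctatttgttcttcacttcccac
MSTRG.6222.1, first primer: ttccctttgcctctgatgact
MSTRG.6222.1, second primer: gaggaagaaacggaacacgaa
MSTRG.20223.1, first primer: cagtaagagaagcagacagcgaa
MSTRG.20223.1, second primer: atactttctgagtggtgccctg
The primers were 21 to 25 nt long. The rest of the members' sequences was not used here.

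Most members were short and present at a low level in Ant, and more than 1 in 2 of them were at or under the floor in Mix. Levels are given as FPKM (fragments scaled to the length of the transcript and to the size of the library). The median FPKM was 2.03 in Ant (95% interval 1.93 to 2.15) and 0 in Mix (0 to 0.0192), where the intervals treat the transcripts as independent draws and hold no variation between plants. In Ant the middle part of the members, from the 25th to the 75th percentile, lay between 1.31 and 4.19 FPKM, and the 95th percentile was 29.3. In Mix the 75th percentile was 0.699 and the 95th was 9.85. Spliced intergenic transcripts, the 1850 class u transcripts with more than 1 exon, had medians of 3.60 in Ant and 0.0136 in Mix. The 7694 single-exon reference transcripts had medians of 0.641 and 0.522. The 26507 multi-exon reference transcripts had medians of 0.958 in Ant (0.916 to 1.005) and 0.592 in Mix (0.561 to 0.618). In Mix the medians of both kinds of intergenic transcript thus lay below those of both kinds of reference transcript. In Ant they lay above. Intergenic transcripts are listed only where they were assembled, and reference transcripts also at levels near 0, so these medians are not like for like. The 5th percentile of the higher FPKM was 1.10 for members, against 0.0313 for single-exon and 0.0310 for multi-exon reference transcripts.

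Presence was counted against a floor of 6 estimated counts. By this measure 596 members were above the floor in both libraries, 791 (56.1%) in Ant alone, 24 (1.70%) in Mix alone and none in neither. Of the members, 712 (50.5%) were listed at exactly 0 in Mix and 17 in Ant. The Wilson 95% interval for the share at or under the floor was 53.5% to 58.6% in Mix and 1.15% to 2.52% in Ant, for counting error only. For single-exon reference transcripts the shares above the floor in 1 library alone were 17.4% for Ant and 12.4% for Mix. The imbalance also stood among the spliced intergenic transcripts, with 51.5% above the floor in Ant alone and 1.95% in Mix alone. An intergenic transcript enters this table only if it was assembled from at least 1 of the libraries. Of the single-exon reference transcripts, 599 were above the floor in neither, so the shares of the 2 classes are not like for like. The 1st percentile of the members' higher FPKM was 1.05, and 4 members were under FPKM 1 in both libraries.

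**Figure D1:**
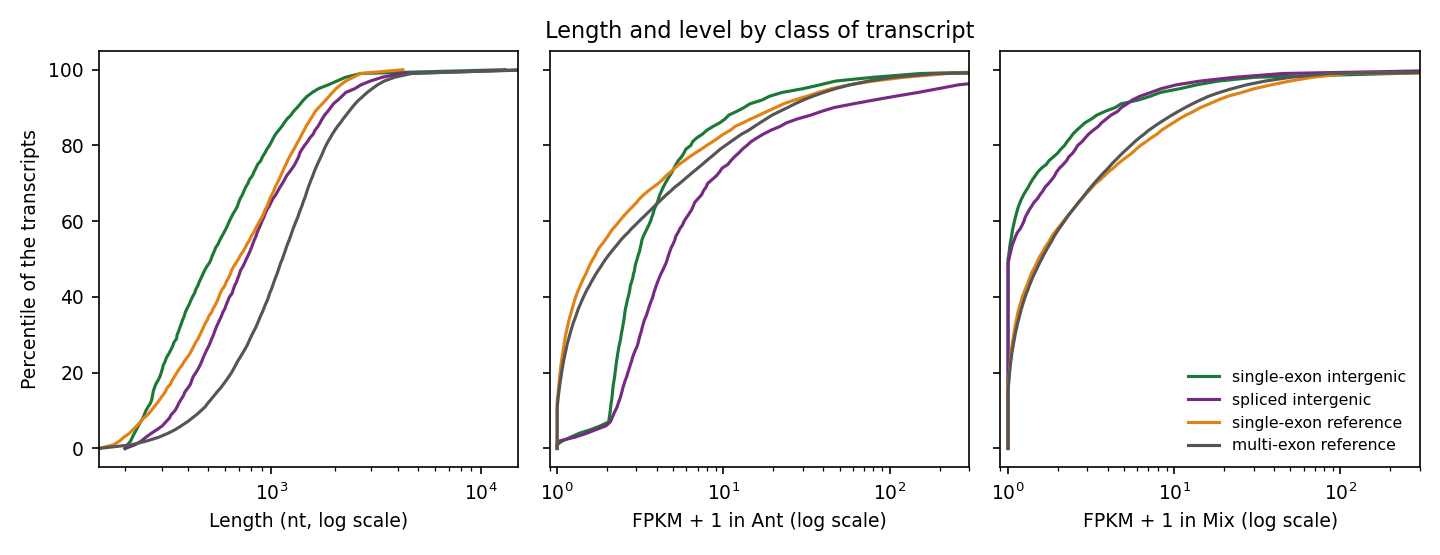
Percentiles of length, of FPKM + 1 in Ant and of FPKM + 1 in Mix (log axes, the level axes end at 300) for the 1411 single-exon intergenic, 1850 spliced intergenic, 7694 single-exon reference and 26507 multi-exon reference transcripts. Single-exon intergenic transcripts were the shortest class by median (516 nt), and their curve in Mix starts with 50.5% of them at FPKM 0.

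The members were the shortest class by median, though the classes overlapped widely in length. Reference lengths were mostly whole numbers of codons, so they may leave out untranslated ends and may not be measured alike. Their median was 516 nt (484 to 539), against 759 nt for spliced intergenic, 696 nt for single-exon reference and 1128 nt for multi-exon reference transcripts. The 25th and 75th percentiles were 324 and 860 nt, against 408 and 1173 nt for single-exon reference transcripts. The members' range ran from 200 to 13048 nt. Only 269 members (19.1%) were over 1000 nt, as were 34.8% of spliced intergenic, 33.2% of single-exon reference and 57.9% of multi-exon reference transcripts. Longer members had higher levels: the median FPKM in Ant was 1.65 among the 286 members under 300 nt and 3.18 among the 45 of 2000 nt or more. The share listed at 0 in Mix was 54.5% in the shortest of these bins and 37.8% in the longest. Longer transcripts collect more fragments at the same FPKM, and the part of detection in this trend was not tested.

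The comparison of the libraries used log2((FPKM Ant + 1)/(FPKM Mix + 1)) for transcripts that reached FPKM 1 in Ant or in Mix, with the study's cutoff of 1 on either side of 0. Of the 1407 members that passed the filter, 1033 (73.4%) were higher in Ant, where 50.2% of all 36009 transcripts were. In the other direction 111 (7.89%) were lower in Ant, against 16.8% of all transcripts, and 263 lay between the cutoffs. Spliced intergenic transcripts gave 78.3% higher and 5.75% lower, and single-exon reference transcripts 34.6% and 30.7%. Centred on the median transcript, 558 members were higher and 159 lower (39.7% and 11.3%, against 34.5% and 23.6% of all transcripts), so that the higher ones fell from 90.3% to 77.8% of those past the cutoff. With library totals that leave out the A06 window, 980 were higher and 181 lower, or 84.4% higher.

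Much of this count came from transcripts of low level. With 1 added to each FPKM, a transcript at FPKM 1 in Ant and 0 in Mix sits exactly at the cutoff. Of the 1033 higher members, 448 (43.4%) had FPKM under 2 in Ant. In Mix 710 (68.7%) were listed at 0. At a cutoff of 2, 343 members (24.4%) were higher, against 24.6% of all transcripts. On the other side 41 (2.91%) were lower at that cutoff, against 7.01% of all transcripts. Even with the other library at 0, a ratio past 2 needs a higher FPKM than a ratio past 1 does. Members had a median FPKM of only 2.03 in Ant, so many could not pass it whatever their contrast. The shares at this cutoff are therefore not like for like. The higher members had a median FPKM of 2.26 in Ant. The lower ones had a median FPKM of 6.38 in Mix and of 0.658 in Ant, and 24 of the 111 were at or under the floor in Ant.

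**Figure D2:**
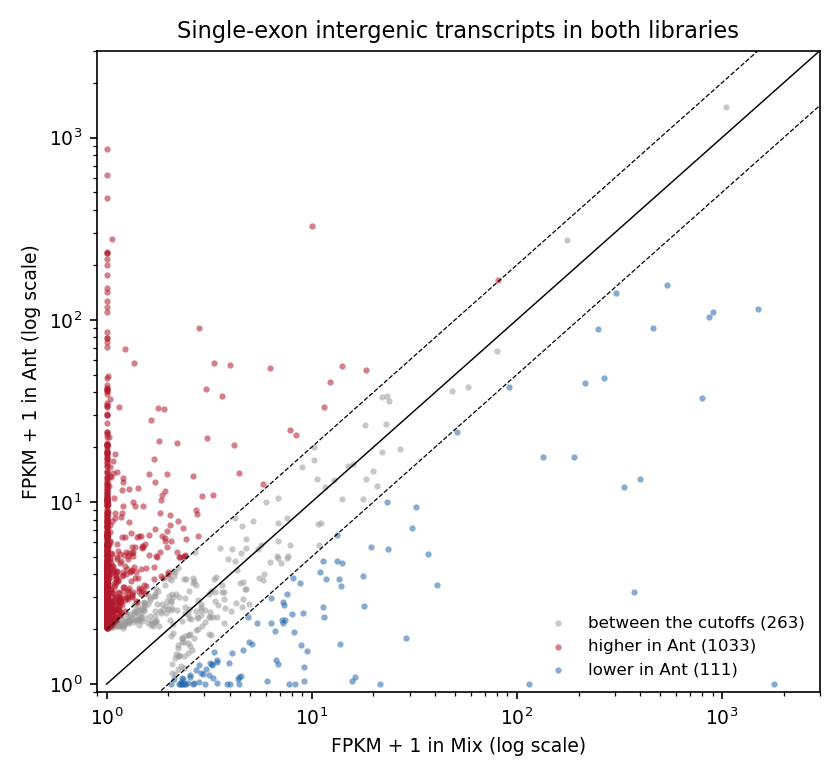
FPKM + 1 in Ant against FPKM + 1 in Mix (log axes) for the 1407 single-exon intergenic transcripts that passed the filter, 1 point each, with equality as a solid line and a doubling of FPKM + 1 either way, the cutoff, as dashed lines. The 1033 members higher in Ant (red) crowd along the left edge, where Mix is at 0, and the 111 lower in Ant (blue) spread along the right.

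The direction changed with the level. Among the 620 members whose higher FPKM was from 1 to 2, 448 (72.3%) were higher in Ant and 21 (3.39%) lower. Of all transcripts at that level, 35.9% were higher and 12.9% lower. Among the 160 members from 10 to 100, 110 (68.75%) were higher and 26 (16.25%) lower, against 60.5% and 18.0% of all transcripts. The lower share there was thus near that of all transcripts. Among the 36 members that reached 100, 17 were higher and 17 lower, 47.2% each, whereas 72.0% of all transcripts at that level were higher in Ant and 21.0% lower. By these listed values, without centring, the most abundant members were split evenly between the libraries. Some of them overlap: MSTRG.10485.1 and MSTRG.10446.1 counted as higher, and their partners MSTRG.10486.2 and MSTRG.10445.1 as lower. How reads were divided within such pairs is uncertain, so the split is too. Of the 17 higher ones 14 were listed at 0 in Mix, but only 2 of the 17 lower ones at 0 in Ant. For MSTRG.22947.1 and MSTRG.10446.1, which overlap other transcripts, the 0 in Mix is uncertain. Those 17 lower members had a median FPKM of 371 in Mix and 43.8 in Ant.

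**Figure D3:**
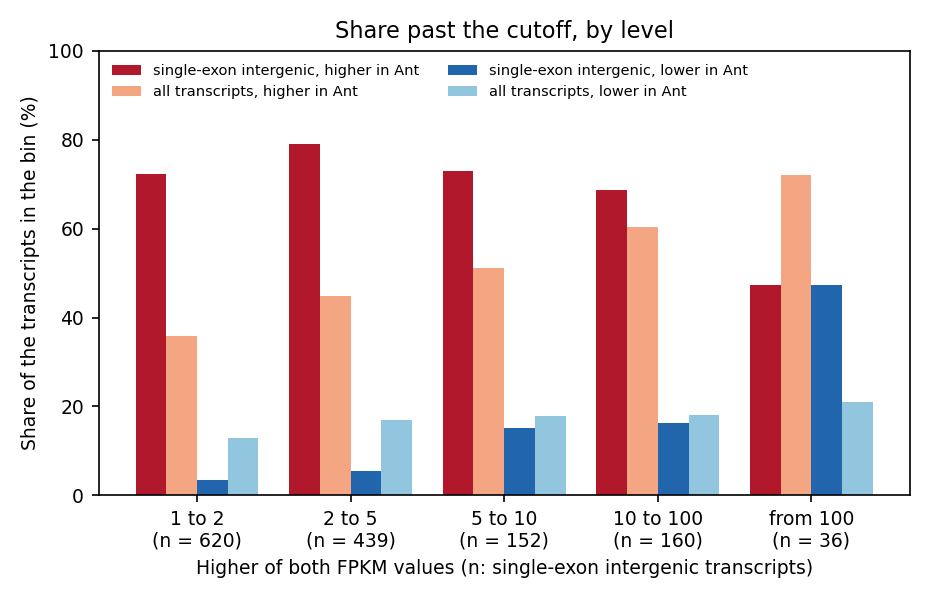
Share of transcripts higher (red) or lower (blue) in Ant past the cutoff of 1, by the higher of both FPKM values, for single-exon intergenic transcripts (dark bars, n below each bin) and for all transcripts of the table (pale bars). The dark red bar falls to 47.2% in the top bin of 36 members, where the dark blue bar also stands at 47.2%.

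A few members held most of the counts. The 10 most abundant took 55.2% of the members' counts in Ant and 78.0% in Mix. MSTRG.10485.1 alone took 28.1% in Ant, and MSTRG.10486.2, which overlaps it on the other strand, took 21.3% in Mix. In Mix 3 members sufficed for 50% of the members' counts, and in Ant 7 did.

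Of the members higher in Ant, MSTRG.22947.1 had the highest ratio. It is 241 nt long, on the minus strand of A08 from 17953054 to 17953294, and had FPKM 870 in Ant (48626 counts) and 0 in Mix (0 counts), at least 8059-fold higher in Ant (4399-fold when the totals leave out the A06 window). It ends at the same coordinate as MSTRG.22946.1, a 6-exon isoform (class j) on the plus strand with 13807 counts in Ant and 307668 in Mix. For the pair together the order turned, with 62433 counts in Ant and 307668 in Mix. Reads of this stretch cannot be told apart by transcript here, so the value of 0 in Mix is uncertain. The nearest reference transcript, BraA08g024650.3C, was near 0 in both libraries (FPKM 0.0632 and 0.0338). It is described as a U-box domain protein, a family of ubiquitin ligases. MSTRG.22946.1 spans it on the same strand and had FPKM 19.5 in Ant and 436 in Mix.

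The other members with the highest ratios overlapped no other transcript. MSTRG.4747.1 (626 nt, A02, 14999644 to 15000269, minus strand) had FPKM 620 in Ant and 0 in Mix, at least 14929-fold higher in Ant. It lay between MSTRG.4746.1 (14988765 to 14989619, FPKM 125 and 0) and MSTRG.4749.1 (15014972 to 15015743, FPKM 232 and 0). Thus 3 members in a row on A02 were abundant in Ant with no count in Mix. Their nearest reference transcripts were low in both libraries, for instance BraA02g025060.3C beside MSTRG.4747.1 with FPKM 0.379 in Ant and 0 in Mix. MSTRG.4746.1 was picked out after its values were seen.

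MSTRG.3861.1 (410 nt, A02, 5565603 to 5566012) was at FPKM 467 in Ant and 0 in Mix, at least 7354-fold higher. MSTRG.2818.1, only 201 nt long (A01, 28182108 to 28182308), had 234 and 0, at least 1808-fold higher. MSTRG.6945.1 (758 nt, A03, 5396317 to 5397074) was the one of the 6 with reads in Mix, at FPKM 278 in Ant and 0.0680 in Mix (48841 and 12 counts), a log2 ratio of 8.03. All 6 of these transcripts were therefore more than 200 FPKM in Ant and under 0.1 in Mix. For none of them did the nearest reference transcript, counted without other isoforms, reach FPKM 1 in either library.

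In Mix the leading member was MSTRG.11236.1, 1518 nt on the plus strand of A04 from 9875971 to 9877488. It had FPKM 0 in Ant (0 counts) and 1801 in Mix (630568 counts), at least 105715-fold higher in Mix, the highest FPKM of any member in either library. Totals without the A06 window raise this bound to 193690-fold, and they lower every bound in favour of Ant in the same proportion. It overlaps 2 other assembled transcripts. One is MSTRG.11235.1, a minus-strand isoform (class j) with 4024 counts in Ant and 76 in Mix. All 3 together had 4341 counts in Ant and 630644 in Mix, so the direction stood for the stretch as a whole, while the value of 0 in Ant is uncertain. The nearest reference transcript, BraA04g012550.3C, had FPKM 1.62 in Ant and 0.695 in Mix. It is described as methylesterase 4-like, of a family whose members hydrolyse methyl esters of plant hormones. MSTRG.11235.1 spans it on the same strand and had FPKM 6.16 in Ant and 0.117 in Mix.

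Unlike the leading members of Ant, most of the other Mix-high members kept reads in Ant. For MSTRG.16887.1 (719 nt, A06, 12752013 to 12752731) FPKM was 2.22 in Ant and 371 in Mix, a log2 ratio of -6.86. MSTRG.29634.1 (1423 nt, A10, 16121058 to 16122480) had 36.1 and 797, with a log2 ratio of -4.43. MSTRG.4938.1 (449 nt, A02, 17376012 to 17376460) had 114 and 1505 and lay 45154 bases from the nearest reference transcript. These transcripts were well above the floor in both libraries, so their ratios are values and not bounds.

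MSTRG.18685.1 (729 nt, A07, 1557931 to 1558659) was at FPKM 11.1 in Ant and 333 in Mix. MSTRG.19887.1 (337 nt, A07) had 109 and 900, and MSTRG.13268.1 (367 nt, A05) had 103 and 869. The exception was MSTRG.19109.1 (930 nt, A07, 10637922 to 10638851), with FPKM 114 in Mix (24455 counts) and 0 in Ant, at least 4100-fold higher in Mix. It lay 332 bases beyond the 3′ end of BraA07g010790.3C, on the opposite strand. That gene is described as a subunit of RNA polymerase I, the enzyme that makes ribosomal RNA. Its reference transcript had FPKM 0.161 in Ant and 0 in Mix.

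The 3 transcripts with primers were all lower in Ant by FPKM. The outcome of the study's quantitative RT-PCR is not reported here, so these directions rest on the sequencing alone. MSTRG.20223.1 (530 nt, A07, 20582167 to 20582696) was at FPKM 12.4 in Ant and 397 in Mix, a log2 ratio of -4.90. MSTRG.6184.1 (1284 nt, A03, 1058416 to 1059699) had 1.67 and 17.0, with a log2 ratio of -2.75. MSTRG.6222.1 (664 nt, A03, 1303588 to 1304251) had 2.78 and 12.5, with a log2 ratio of -1.84. The gap between the libraries was thus widest for MSTRG.20223.1. MSTRG.6184.1 lay 202 bases before the 5′ end of BraA03g002380.3C, on the same strand. This gene is described as an SF3a60 homolog, a part of the spliceosome. Its reference transcript had FPKM 0.917 in Ant and 0 in Mix, the opposite order.

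Some members were abundant in both libraries. MSTRG.9007.1 (483 nt, A03, 20791905 to 20792387) had the highest FPKM in Ant, 1465, and 1050 in Mix. Its log2 ratio of 0.48 is smaller than the 0.54 shift of the median transcript. MSTRG.28687.1 (852 nt, A10) had FPKM 273 and 176, MSTRG.2139.1 (342 nt, A01) had 66.1 and 79.3, and MSTRG.30372.1 (5409 nt, A10) had 41.9 and 56.7. With totals that leave out the A06 window, the log2 ratios of MSTRG.2139.1 and MSTRG.30372.1 passed the cutoff at -1.13 and -1.29, and those of MSTRG.9007.1 and MSTRG.28687.1 turned negative at -0.39 and -0.24. The reference transcript nearest to MSTRG.9007.1, described as a homolog of the replication protein CDC45, had FPKM 1.66 in Ant and 1.22 in Mix. High members thus also stood beside reference transcripts of low level.

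**Figure D4:**
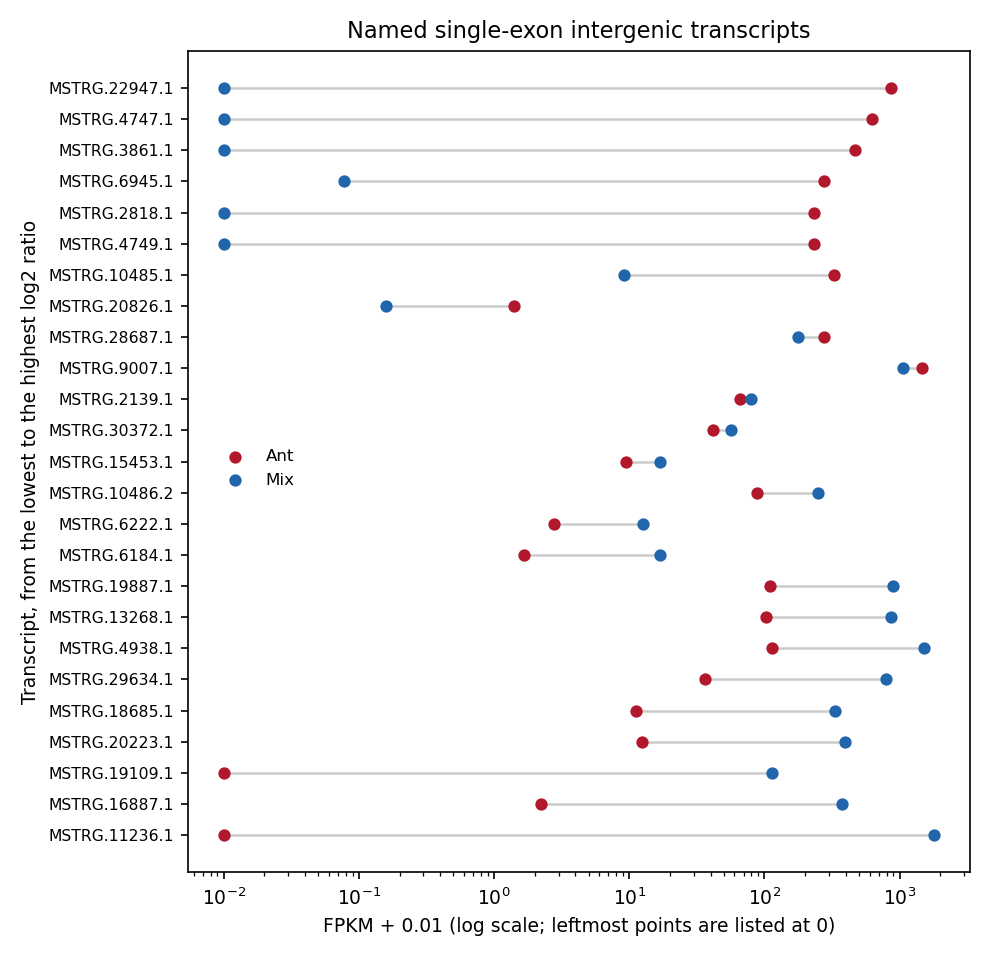
FPKM + 0.01 (log axis) in Ant (red) and Mix (blue) for 25 named single-exon intergenic transcripts, in the order of their log2 ratio, with a line joining the values of each. Points at the left edge are listed at 0: the leading transcripts of Ant (top) mostly reach 0 in Mix, while of the 9 lowest lines only MSTRG.19109.1 and MSTRG.11236.1 reach 0 in Ant.

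The 4 longest members included 2 that cover one stretch near the start of A04 on opposite strands. MSTRG.10485.1 (12977 nt, plus strand, 271728 to 284704) was at FPKM 327 in Ant and 9.06 in Mix. MSTRG.10486.2 (11786 nt, minus strand, 272919 to 284704) had 87.6 in Ant and 248 in Mix. The 2 transcripts were thus listed higher in different libraries, but how their reads were divided between the strands is uncertain. With the 2-exon isoform of the same locus, the total was 1226512 counts in Ant and 759625 in Mix. The longest member, MSTRG.15453.1 (13048 nt, A06, 90027 to 103074), had FPKM 9.37 and 16.9, and MSTRG.20826.1 (5907 nt, A07, 25038746 to 25044652) had 1.40 and 0.149.

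In all, 18 members formed 9 overlapping pairs, each with its members on opposite strands. The strand setting of the counting is not stated, so how the reads of such a pair were divided is uncertain. MSTRG.1894.1 and MSTRG.1895.1 span the same bases of A01 (18124487 to 18124702) and had the same 836 counts in Ant, and 6660 and 9418 counts in Mix. On A03, MSTRG.10446.1 had FPKM 200 in Ant and 0 in Mix (37825848 to 37828055, plus strand). Its partner MSTRG.10445.1, on the minus strand, had 154 and 538, so the sums were 205182 counts in Ant and 357198 in Mix. For this stretch the sum was lower in Ant, against the value of MSTRG.10446.1 alone. These pairs were picked out after their values were seen. In all 99 members overlapped some other assembled transcript, 19 of them an isoform of class j, a variant of a reference gene. Without these, 961 of 1311 were higher in Ant and 98 lower.

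Most members lay within a few kilobases of a reference transcript. Reference spans may leave out untranslated ends, so a distance may not run to the end of the gene's RNA. No member overlapped the span of a reference transcript, as the class code requires, and the median distance to the nearest was 2897 bases (2693 to 3146). The range was 2 to 183317 bases, with 334 members (23.7%, Wilson interval 21.5% to 26.0%) within 1000 bases and 189 (13.4%) beyond 10000. Spliced intergenic transcripts were nearer, with a median of 2114.5 bases (1920 to 2308) and 31.8% within 1000. The median member had 11 reference transcripts within 50000 bases on either side. Its nearest neighbour was described as uncharacterized or hypothetical for 491 members (34.8%) and as a chloroplast or mitochondrial product for 82 (5.81%). The shares for spliced intergenic transcripts were 32.9% and 7.14%.

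The side of the gene was uneven near genes. In all, 985 members (69.8%) lay on the 5′ side of the nearest reference transcript and 426 on its 3′ side. Within 2000 bases 496 lay on the 5′ side and 35 on the 3′ side, whereas beyond 2000 bases 489 and 391 did. All 35 on the near 3′ side were on the opposite strand to the gene. The near 5′ side held 345 members with no strand and 109 on the strand of the gene. Class code p, a possible run-on of the polymerase near a gene, is kept apart from code u, and the table held 757 such transcripts, all with 1 exon, 595 of them on the 3′ side of the nearest reference transcript. For 685 of these 757 the nearest reference transcript was within 2000 bases. Transcripts of code p cannot be members, so the counts by side depend in part on the class codes. How far they do was not tested. Spliced intergenic transcripts had 477 on the 5′ side and 424 on the 3′ side within 2000 bases.

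Members nearest to genes were less often empty in Mix. The share listed at 0 in Mix was 31.5% of the 89 members within 250 bases of a reference transcript, 43.3% of the 134 from over 500 to 1000 bases, and 56.1% of the 189 beyond 10000. The median FPKM in Mix went from 0.406 in the nearest bin to 0 beyond 1000 bases. Levels in Ant held no such trend, with medians between 1.81 and 2.49 over the 7 bins. The nearest bin also held the shortest members, with a median of 378 nt.

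**Figure D5:**
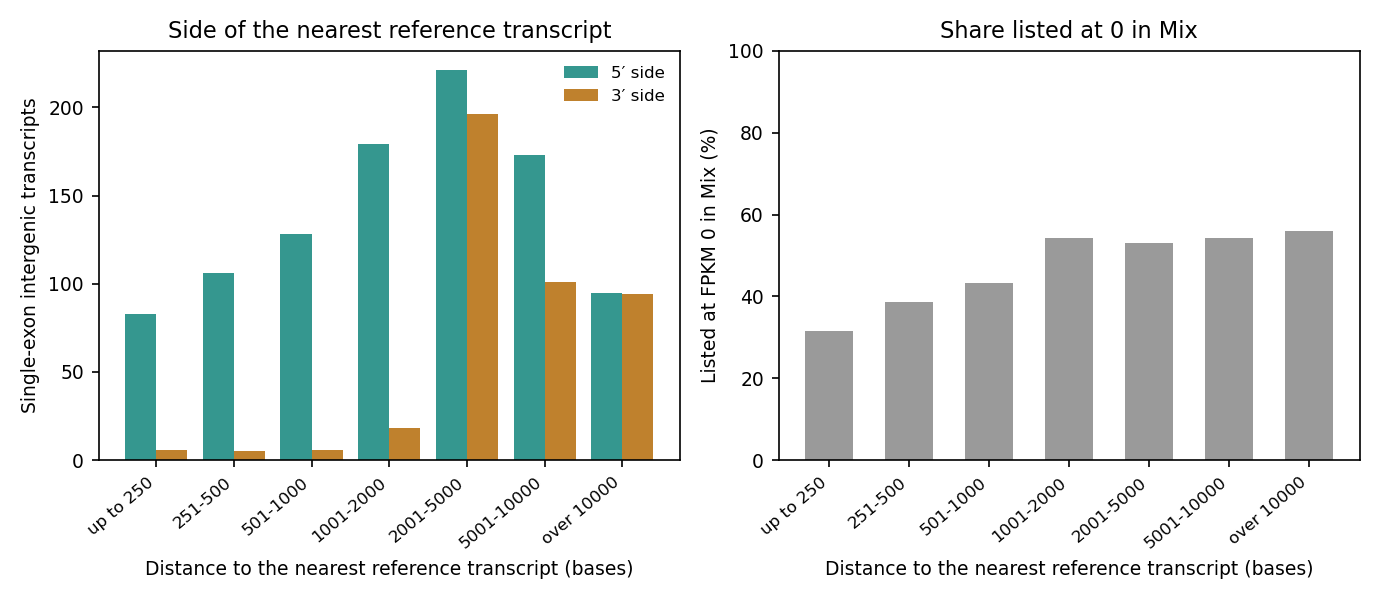
Left, number of single-exon intergenic transcripts on the 5′ side (green) and the 3′ side (brown) of the nearest reference transcript, by distance in bases; right, the share of them listed at FPKM 0 in Mix (%). The 3′ bars stay at 18 or fewer up to 2000 bases and reach 196 in the next bin, and the share at 0 goes from 31.5% in the nearest bin to 56.1% in the farthest.

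The direction of a member was compared with that of its nearest reference transcript, within 100000 bases, as a description. The signs of the log2 ratios were the same for 857 of 1409 members (60.8%), and for 43.9% once both were centred on the median transcript. Within 1000 bases they were the same for 234 of 334 (70.1%), over 1000 and up to 5000 bases for 55.7% and beyond that for 61.0%. These shares by distance were not centred. The members' ratios were mostly above 0, with a 25th percentile of 0.94. Neighbours within 1000 bases had 123 ratios above 1 and 28 below -1, against 150 and 91 over 1000 and up to 5000 bases. Many equal signs can come from such skews alone, and the share that they would give was not worked out. Spliced intergenic transcripts within 1000 bases gave 61.8% of 589. Across the 228 members within 1000 bases whose neighbour had FPKM of at least 1, Spearman's rho of the log2 ratios was 0.38. It was 0.05 over 353 members beyond 1000 and up to 5000 bases, and 0.03 over 349 spliced intergenic transcripts within 1000 bases. On the 5′ side within 1000 bases, rho was 0.49 over 64 members on the strand of the gene and 0.31 over 143 with no strand. It was 0.12 over 17 on the opposite strand. The shares of equal signs ran in another order, with 72.3% of 94 on the gene's strand, 69.0% of 197 with no strand and 80.8% of 26 on the opposite strand. These points share 2 libraries and in part their neighbours, so they are not independent.

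An example of a shared direction was MSTRG.4306.1 (714 nt, A02, 9879356 to 9880069), which had FPKM 4.15 in Ant and 0.158 in Mix. It lay 619 bases before the 5′ end of BraA02g017810.3C, which is described as a very-long-chain 3-oxoacyl-CoA reductase, an enzyme of fatty acid elongation, and had FPKM 148 and 39.1. MSTRG.19952.1 (390 nt, A07, 18799555 to 18799944) had 4.17 in Ant and 36.0 in Mix. Its neighbour BraA07g023710.3C, 1503 bases away and described as an aspartic protease, had 3.08 and 14.7. Both are among the 13 members that the study's text names, of which 10 were higher in Ant and 2 lower. Among all members past the filter 73.4% were higher and 7.89% lower, and among all transcripts 50.2% and 16.8%. The count therefore does not by itself set the named members apart from the rest. The study chose these 13 on the same libraries. Among the others, MSTRG.18069.1 (519 nt, A06) had FPKM 40.5 in Ant and 0 in Mix, at least 809-fold higher, MSTRG.25939.1 (A09) had 6.37 and 0, MSTRG.4677.1 (A02) had 5.67 and 0, and MSTRG.5336.1 (A02) had 3.25 and 0.0294.

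A strand was given for 368 members, 200 plus and 168 minus, and 1043 (73.9%) had none. An assembler can read the strand from splice sites, which a single exon lacks, and all 1850 spliced intergenic transcripts had a strand. Members with a strand were longer, with a median of 630.5 nt against 471 nt. Their median FPKM in Ant was 3.03, against 1.87 for those with none. Of those with a strand, 68.2% were higher in Ant and 10.4% lower, and of those with none 75.2% and 7.01%.

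All 10 chromosomes held members. Their density ran from 4.01 per Mb on A07 to 5.66 per Mb on A02, and from 3.40 per 100 reference transcripts on A03 to 5.30 on A02. Of all 36009 transcripts that passed the filter, 50.2% were higher in Ant and 16.8% lower, and these shares were not taken by chromosome. An excess of higher over lower members on a chromosome therefore does not by itself set the members apart. Such an excess was present on every chromosome, from 69 and 6 on A10 to 145 and 20 on A09. The counts were less even: A04, with 118 members, held 1392911 of the members' counts in Ant and 1391461 in Mix, most of them in the overlapping transcripts near its start and, in Mix, in MSTRG.11236.1. On A08 the members held 152348 counts in Ant and 18158 in Mix, and on A10 184061 and 403596.

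Over 500 kb windows, 532 of 597 held a member, with a median of 2. The window with the most, 14 members beside 18 reference transcripts, was the one next to the left-out window on A06. It held 10 of them between 15603821 and 15624355. Here 4 of the 14 were higher in Ant, 3 lower and 7 between the cutoffs. MSTRG.16946.1 was at FPKM 89.2 in Ant and 1.83 in Mix, and MSTRG.16947.1 had 43.8 and 214. MSTRG.16950.1 (1150 nt, FPKM 34.6 and 22.8), MSTRG.16951.1 (1092 nt, 25.6 and 17.2) and MSTRG.16954.1 (1152 nt, 25.9 and 22.1) were alike in length and level. No other window had more than 8, and 7 windows had 8. Among these were a window of A02 with 7 of its 8 members higher in Ant, and the window of A03 around MSTRG.9007.1 with 5 higher and 1 lower. The 8 members of the A02 window include 2 overlapping pairs. Among all members past the filter 73.4% were higher and 7.89% lower, and among all transcripts 50.2% and 16.8%. Counts this small do not set a window apart from those shares.

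Near the end of A03, 6 members lay between 37822762 and 37834295. There MSTRG.10443.1 and MSTRG.10448.1 were both 517 nt long on the plus strand, with FPKM 36.8 and 37.0 in Ant and 20.9 and 22.3 in Mix. Whether these are copies of one sequence was not tested, and reads of near-identical copies cannot be told apart by transcript. On A02, the 5 members from 27050307 to 27074423 all had FPKM of 29.3 or more in Ant and 0 in Mix, led by MSTRG.5565.1 at 141 and MSTRG.5555.1 at 117. These 5 hold 2 of the overlapping pairs and so stand for 3 separate stretches. The members of A03 were picked out after their values were seen.

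The members were also placed among the genes of another annotation. The RefSeq gene table (assembly CAAS_Brap_v3.01) was used only for the order of genes, since its coordinates belong to another release than v3.0. For 26 members the nearest reference transcripts on both sides were described by RefSeq loci found on that chromosome. RefSeq had no gene between these loci for 9 members and at least 1 gene for 17. Genes of the protein-coding type stood between for 13, long non-coding RNA genes for 11, small nucleolar RNA genes for 3 and pseudogenes for 3. The pair MSTRG.1894.1 and MSTRG.1895.1 lay between loci that flank a small nucleolar RNA gene, LOC117129199, of the kind that guides chemical modification of ribosomal RNA, and a protein-coding gene, LOC117126830. MSTRG.17557.1 (842 nt, A06, FPKM 3.17 in Ant and 0 in Mix) had 1 RefSeq gene between its flanking loci, the long non-coding LOC103874326. MSTRG.11003.1 (1028 nt, A04), with FPKM 84.7 in Ant and 0 in Mix, had none. Whether a member is the RefSeq gene between its neighbours was not tested.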

How the data were processed

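RNA of 1 Ant and 1 Mix library was measured by total RNA sequencing. The authors trimmed reads with Cutadapt, mapped them to B. rapa v3.0 and assembled transcripts with StringTie; the processing notes list HISAT2, StringTie and TopHat, and the methods Bowtie2 and TopHat2. The deposited FPKM values were used as given; the methods name Ballgown and the results Cuffdiff as their source, so it is uncertain. The estimated counts, also deposited, were whole and followed FPKM multiplied by length, so they are not reads counted one by one, and no count model was fitted. The kit is given as stranded total RNA in the labels and as an mRNA kit in the methods.

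The members, lists and cutoffs were chosen with earlier results of these data known. Ratios had 1 added to each FPKM, with a filter of FPKM of at least 1 in either library. The floor was 6 estimated counts per library, because 1 estimated count was worth less than 1 read, and folds against it are lower bounds; intervals and floors cover counting error only. Distances are to transcripts of class = in the same table, and 5′ and 3′ ends are those of their spans. Levels of neighbours are of these transcripts alone, without other isoforms of the gene. Named members were the 6 highest and 6 lowest ratios, the 5 highest FPKM in each library, the 4 longest, the 4 most abundant similar in both, those with primers, and those with the highest FPKM among the members named in the study's text; others are said to have been chosen after their values were seen, or illustrate windows and RefSeq neighbours. Scripts were tested on simulated data (Python 3.11.15, pandas 2.3.3, scipy 1.17.1). Circular RNAs were not used.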

Additional observations from a re-analysis of the deposited data

How the results depend on the processing

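No paired analysis was possible because each group held 1 library, and no library could be left out. Of 43 alternatives to the summary values, 26 kept the value (counts within 1.5 times; others within their 95% interval). Against 1033 members higher and 111 lower in Ant, a filter of FPKM of at least 5 in either library left 238 and 66, a cutoff of 2 gave 343 and 41, centring gave 558 higher, and totals without the A06 window gave 181 lower. Members of at least 500 nt had a median FPKM of 2.30 in Ant and 0.0293 in Mix, and members of at least 300 nt a median length of 632 nt. The share near a reference transcript was 14.2% within 500 bases, 67.2% within 5000, and 16.4% within 1000 of a reference transcript with FPKM of at least 1. The share at or under the floor was 2.69% in Ant at a floor of 20 counts, and in Mix 52.5% at a floor of 3 and 63.8% at 20. The share with the sign of the nearest reference transcript was 43.9% after centring and, without centring, 70.1% within 1000 bases. The alternative without overlapping transcripts was chosen after seeing the data and changed no count by over 1.5 times. Of the 39 named members, none changed the sign of a ratio past the cutoff. MSTRG.15453.1 came to be lower in Ant past the cutoff, at -1.32 centred and -1.62 without the A06 window, and MSTRG.20826.1 fell within it, at 0.53 and 0.93. Estimated counts come from coverage, so values near the floor are not exact.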
